A study of Mus musculus with 4 samples.

Results

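The genes described here are the platelet-derived growth factor (PDGF) receptors and ligands of mouse periosteal stromal cells, taken by symbol from a deposited table of log2 expression values. They comprise the receptors *Pdgfra* and *Pdgfrb*, the receptor-like gene *Pdgfrl* and the ligands *Pdgfa*, *Pdgfb*, *Pdgfc* and *Pdgfd*, which are 7 of 45802 gene symbols listed. All 7 had a value in all 4 libraries, as did 14415 of the symbols listed.

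There were 4 RNA libraries, 2 of the PDGFRα reporter+ and 2 of the PDGFRα reporter− population, and the comparison asked how the sorted populations differ in expression. Both populations came from the same kind of animal, male Pdgfrα-mT/mG mice of 9 to 10 weeks, in which an inducible Cre recombinase under *Pdgfra* regulatory sequence turns a membrane Tdtomato reporter into membrane GFP. All mice received tamoxifen at 150 mg/kg/day for 5 days, and 14 days later cells were freed from the surface of femurs and tibias with collagenase, grown for 1 passage with 10 ng/mL basic fibroblast growth factor and sorted as negative for CD31, CD45 and Ter119. PDGFRα reporter+ cells were mGFP+ and PDGFRα reporter− cells were mTdtomato+, so that the gate read a reporter set at the time of tamoxifen and not the receptor itself. Each population was pooled from 3 to 6 mice per the labels, or 5 to 8 per the methods, and no source used here says whether the libraries of a population came from separate pools, so that the spread between them may be technical. The table heads its libraries with a population and a number, 2 or 3, and they are named by that number below.

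PDGF ligands are secreted dimers that bring receptor chains together at the cell surface, whereupon the receptor tyrosine kinases phosphorylate each other and recruit signaling enzymes. PDGF-A and PDGF-C act through PDGFRα, PDGF-D acts mainly through PDGFRβ, and PDGF-B binds either receptor. In connective tissues PDGFRα is a common marker of fibroblasts and mesenchymal progenitors and PDGFRβ a common marker of mural cells, and in bone PDGF is known as a mitogen and attractant of osteoprogenitors.

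The upstream sequences of 3 genes are shown because the results turn on them, *Pdgfra* as the gene whose regulatory sequence set the sort and *Pdgfc* and *Pdgfd* as the ligands that varied most between libraries. Each is the 250 bases before a RefSeq transcript start on GRCm38.p6, on the plus strand, and holds no exon of the GENCODE M21 annotation. The *Pdgfra* window is chr5:75152001-75152250, that of *Pdgfc* is chr3:81036166-81036415, and that of *Pdgfd* is chr9:6168236-6168485. Capitals mark a match to TATAAA.
Pdgfra: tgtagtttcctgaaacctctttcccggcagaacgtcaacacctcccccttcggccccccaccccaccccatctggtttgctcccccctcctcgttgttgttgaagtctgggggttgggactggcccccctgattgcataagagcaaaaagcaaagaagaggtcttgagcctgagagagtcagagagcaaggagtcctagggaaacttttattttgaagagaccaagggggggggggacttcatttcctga
Pdgfc: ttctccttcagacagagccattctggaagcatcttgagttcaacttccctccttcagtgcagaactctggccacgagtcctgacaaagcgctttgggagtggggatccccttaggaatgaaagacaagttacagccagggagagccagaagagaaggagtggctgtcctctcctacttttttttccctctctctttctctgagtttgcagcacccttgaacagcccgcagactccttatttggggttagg
Pdgfd: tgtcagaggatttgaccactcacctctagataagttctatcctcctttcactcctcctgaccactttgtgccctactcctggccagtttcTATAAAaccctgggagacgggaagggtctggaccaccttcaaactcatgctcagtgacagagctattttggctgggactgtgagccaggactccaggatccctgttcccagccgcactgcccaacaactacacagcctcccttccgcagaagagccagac
The windows were searched on both strands for TATAAA (the TATA box), for CCAAT (the CCAAT box), for GGGCGG (the GC box) and for TGACTCA (the AP-1 motif), none of which is contained in another. TATAAA occurred once in the *Pdgfd* window, starting 160 bases before the transcript start, and it occurs in 12.4% of 32851 RefSeq windows of this length. None of these motifs was found in the *Pdgfra* and *Pdgfc* windows, whereas 33.8% of all windows hold CCAAT, 32.7% hold GGGCGG and 4.46% hold TGACTCA. GC content was 54.4% for *Pdgfra*, 50.8% for *Pdgfc* and 53.6% for *Pdgfd*.

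*Pdgfra*, whose regulatory sequence drives the Cre recombinase and not the sorted reporter itself, was among the most abundant transcripts of both populations. The gene lies on the plus strand at chr5:75152292-75198215 (GRCm38). Its log2 value was 7.78 and 7.62 in reporter+ libraries number 2 and number 3, and 7.87 and 7.44 in reporter− libraries number 2 and number 3. The highest and the lowest of the 4 values were both from reporter− cells, and the reporter+ values lay between them. In every library over 99% of the genes with a value were at or below *Pdgfra* (99.0% to 99.3%). The mean was 7.70 ± 0.12 (SD, n = 2) in reporter+ and 7.65 ± 0.30 (SD, n = 2) in reporter− cells, a log2 difference of 0.05 with a standard error of 0.24 and a 95% interval from −0.59 to 0.69, which on the linear scale is a ratio between 0.663 and 1.61. Within number 2 the reporter+ library was 0.08 lower (log2 difference −0.08) and within number 3 it was 0.18 higher. The adjusted p of this difference was 1 in limma with Benjamini-Hochberg adjustment over 14415 genes. A difference in mRNA per cell and a difference in the share of cells that express the gene cannot be told apart in bulk RNA.

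*Pdgfrb*, the gene of the other PDGF receptor (chr18:61045150-61085061, plus strand), was lower than *Pdgfra* in every library. Its log2 values were 4.77 and 5.02 in reporter+ and 4.84 and 5.09 in reporter− libraries, in the order number 2 and number 3. Reporter+ was below reporter− by the same small amount within both numbers, −0.07 and −0.07, while the populations overlapped. The mean was 4.90 ± 0.17 (SD, n = 2) in reporter+ and 4.97 ± 0.18 (SD, n = 2) in reporter− cells, with a log2 difference of −0.07, a standard error of 0.18 and a 95% interval from −0.54 to 0.40, the narrowest interval of the 7 genes.

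The receptors were also compared inside each library, a distance that a constant factor on a library leaves as it is but quantile normalization can move. *Pdgfra* exceeded *Pdgfrb* on the log2 scale by 3.01 and 2.60 in reporter+ libraries and by 3.02 and 2.35 in reporter− libraries. Both libraries numbered 2 had the wider distance, and the populations overlapped (2.81 ± 0.29 against 2.69 ± 0.47, SD, n = 2 each). Levels of different genes are set side by side here on the deposited scale, whose linear unit is not stated. Its lowest values fall with transcript length (the mean of the 10 lowest was −7.24 to −6.31 for exon lengths of 512 to 1024 bases and −9.36 to −9.12 for 8192 to 16384 bases), as they would on a scale per length.

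*Pdgfrl* encodes a receptor-like protein that resembles the ligand-binding part of PDGFRβ and has no kinase domain (chr8:40926212-40990785, plus strand). Its log2 value was 0.86 and 0.36 in reporter+ and 0.43 and 0.0049 in reporter− libraries, again for number 2 and number 3. It was the member that was higher in reporter+ within both numbers, by 0.43 and 0.35, but reporter+ number 3 lay below reporter− number 2. The mean was 0.61 ± 0.35 (SD, n = 2) against 0.22 ± 0.30 (SD, n = 2), a log2 difference of 0.39 with a standard error of 0.34 and a 95% interval from −0.50 to 1.29 (limma, adjusted p = 1). It was 0.14 without reporter+ number 2, 0.18 without reporter− number 3 and 0.23 with a pseudocount of 1.

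**Figure D1:**
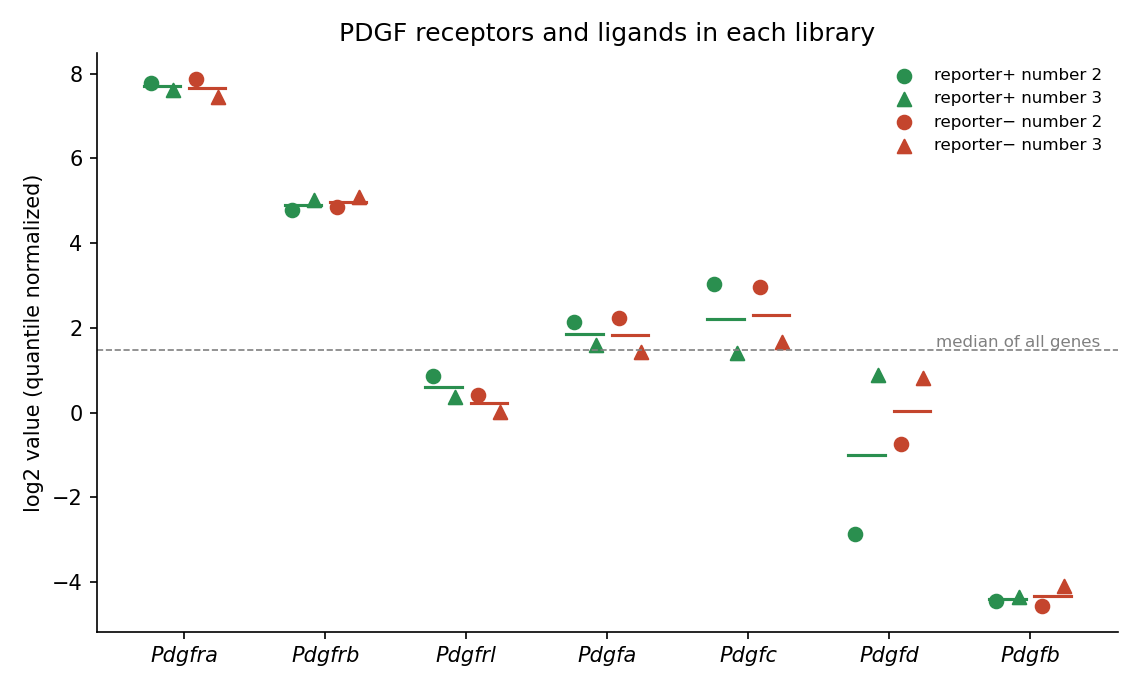
Deposited log2 value of each PDGF receptor and ligand gene in the 4 libraries, with reporter+ in green, reporter− in red, circles for number 2, triangles for number 3 and a line at the mean of each population. The dashed line is the median of all genes with a value (1.48). In each gene the green and red points overlap, and in *Pdgfc* and *Pdgfd* circles and triangles stand apart.

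*Pdgfc* and *Pdgfa* encode the ligands with the highest levels in these cells. *Pdgfc* (chr3:81036416-81214040, plus strand), whose product is a latent factor activated by removal of its CUB domains, had log2 values of 3.04 and 1.40 in reporter+ and 2.96 and 1.66 in reporter− libraries. Both libraries numbered 2 were well above both libraries numbered 3, and the populations overlapped. The means were 2.22 ± 1.16 (SD, n = 2) and 2.31 ± 0.92 (SD, n = 2), and the log2 difference of −0.09 had a standard error of 0.72 and a 95% interval from −2.01 to 1.82. The differences within a number were 0.08 and −0.27.

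*Pdgfa* (chr5:138976014-138997370, minus strand), which encodes the A chain that binds PDGFRα, had log2 values of 2.13 and 1.59 in reporter+ and 2.24 and 1.43 in reporter− libraries. The libraries numbered 2 were again the higher ones in both populations. The means were 1.86 ± 0.38 (SD, n = 2) and 1.84 ± 0.58 (SD, n = 2), with a log2 difference of 0.02, a standard error of 0.37 and a 95% interval from −0.97 to 1.01. Within numbers 2 and 3 the differences were −0.12 and 0.16.

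*Pdgfd* (chr9:6168584-6378850, plus strand), the gene of the other latent CUB-domain ligand, varied most. Its log2 value was −2.86 in reporter+ number 2, 0.88 in reporter+ number 3, −0.73 in reporter− number 2 and 0.83 in reporter− number 3. The libraries numbered 3 lay close together and above both libraries numbered 2, and reporter+ number 2 was by far the lowest. The means were −0.99 ± 2.64 (SD, n = 2) and 0.05 ± 1.11 (SD, n = 2), and the log2 difference of −1.04 had a standard error of 1.39 and a 95% interval from −4.74 to 2.66. The difference was −2.13 within number 2 and 0.05 within number 3, and without reporter+ number 2 it was 0.83, so that its direction rested on that library.

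*Pdgfb* (chr15:79995874-80014977, minus strand), which encodes the B chain known from platelets and endothelial cells, was the lowest member in every library. Its log2 values were −4.45 and −4.35 in reporter+ and −4.55 and −4.10 in reporter− libraries, and they overlapped. Between 11.3% and 13.3% of the genes with a value were at or below it in reporter− libraries. The mean was −4.40 ± 0.07 (SD, n = 2) against −4.32 ± 0.32 (SD, n = 2), the log2 difference was −0.07 with a standard error of 0.59 and a 95% interval from −1.65 to 1.51, and the differences within a number were 0.10 and −0.25. Of the 10 endothelial markers on a list, *Pecam1* (CD31) had log2 values of −4.68 and −4.79 in reporter+ and −1.99 and −1.11 in reporter− libraries, and the summed linear signal of the list was 2.76 to 3.50 against 3.43 to 6.70. Among the 8 with a value in all libraries, 4 were below in reporter+ without overlap and 0 above, beside 8.10% and 7.59% of all genes. *Tek*, *Egfl7*, *Esam* and *Vwf* overlapped, with *Egfl7* at 1.22 and 1.00 against 1.01 and 1.29. For 8 megakaryocyte and platelet markers the sums were 3.91 to 5.21 against 2.77 to 3.31, with *Gp9*, *Gp1ba* and *Gp6* blank throughout. In that list *Pf4* was without overlap at 1.10 and 0.72 against −0.94 and −0.95 on the log2 scale, *Itga2b* and *Ppbp* overlapped, and *Gp1bb* was lower in reporter+ within both numbers (−0.14 and −0.06). The part of either cell type in *Pdgfb* was not tested.

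Across the 7 genes, no adjusted p was under 0.05 in limma, where the share called among all genes was 0.00% (0 of 14415, with 131 genes at an unadjusted p under 0.05). Those 131 are a smaller share of genes than 0.05, so the lack of calls in this model is not evidence that the populations are alike. No member had populations that did not overlap, against 7.59% of all genes with reporter+ above and 8.10% with reporter+ below. *Pdgfrl* alone was higher in reporter+ within both numbers, as were 22.1% of all genes, and *Pdgfrb* alone was lower within both, as were 24.8%. The largest absolute difference, that of *Pdgfd*, belonged to the gene with the widest interval, and the median absolute difference over all genes was 0.12. For *Pdgfra* the interval of the difference spans a ratio of 0.663 to 1.61 and for *Pdgfc* a ratio of 0.249 to 3.54 in this model, which leaves the library number in the error.

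**Figure D2:**
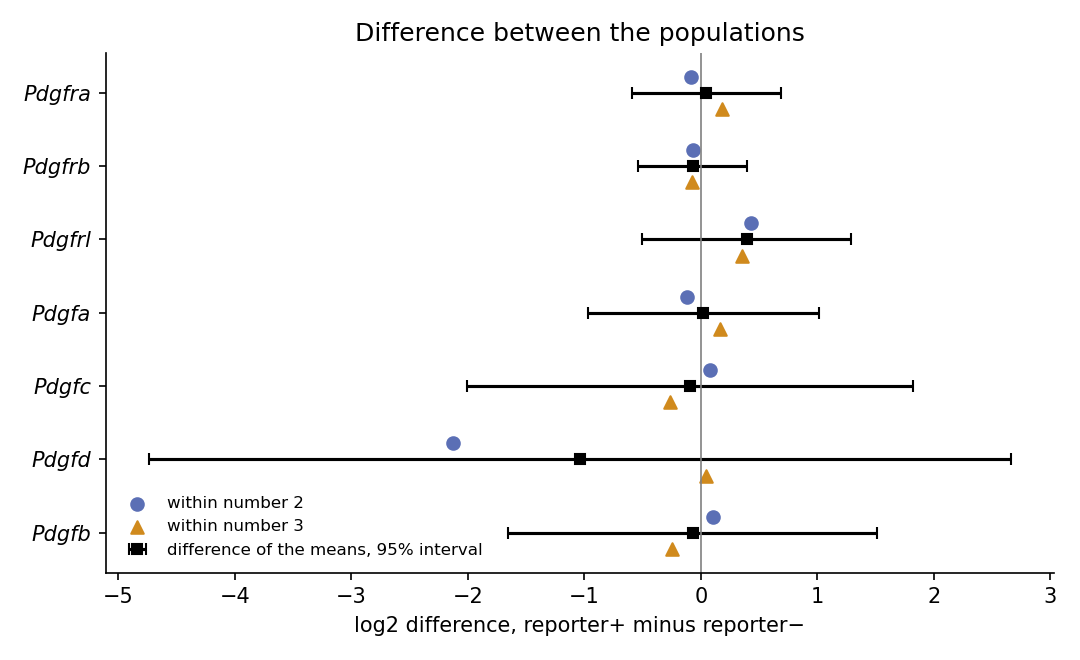
Log2 difference of each gene between PDGFRα reporter+ and reporter− cells, as the difference of the means of 2 libraries each (black squares, with the 95% interval from limma) and within number 2 (blue circles) and number 3 (orange triangles), without an interval. Every interval crosses 0, from −0.59 to 0.69 for *Pdgfra* to −4.74 to 2.66 for *Pdgfd*.

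The order of the levels was the same at its ends in all 4 libraries. *Pdgfra* was first, *Pdgfrb* second and *Pdgfb* last in each. *Pdgfc* was above *Pdgfa* in 3 libraries and below it in reporter+ number 3, so that these neighbors were not separated beyond their spread. *Pdgfrl* and *Pdgfd* likewise exchanged places, with *Pdgfrl* higher in the libraries numbered 2 and *Pdgfd* higher in those numbered 3.

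Put on the linear scale and summed within a library, the 4 ligand genes gave a total of 12.8 and 7.54 in reporter+ and 13.2 and 7.70 in reporter− libraries, in the unstated linear unit of the table. The total was thus higher in number 2 than in number 3 in either population and nearly the same between populations of 1 number. *Pdgfc* made up 64.4% and 35.0% of the ligand signal in reporter+ and 59.2% and 41.2% in reporter− libraries. *Pdgfd* made up 1.08% and 24.4% in reporter+ and 4.56% and 23.1% in reporter− libraries. The share of *Pdgfa* moved little, from 34.1% to 40.0% over the 4 libraries, and that of *Pdgfb* stayed between 0.323% and 0.759%. These shares rest on the deposited scale and on transcripts, not protein.

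**Figure D3:**
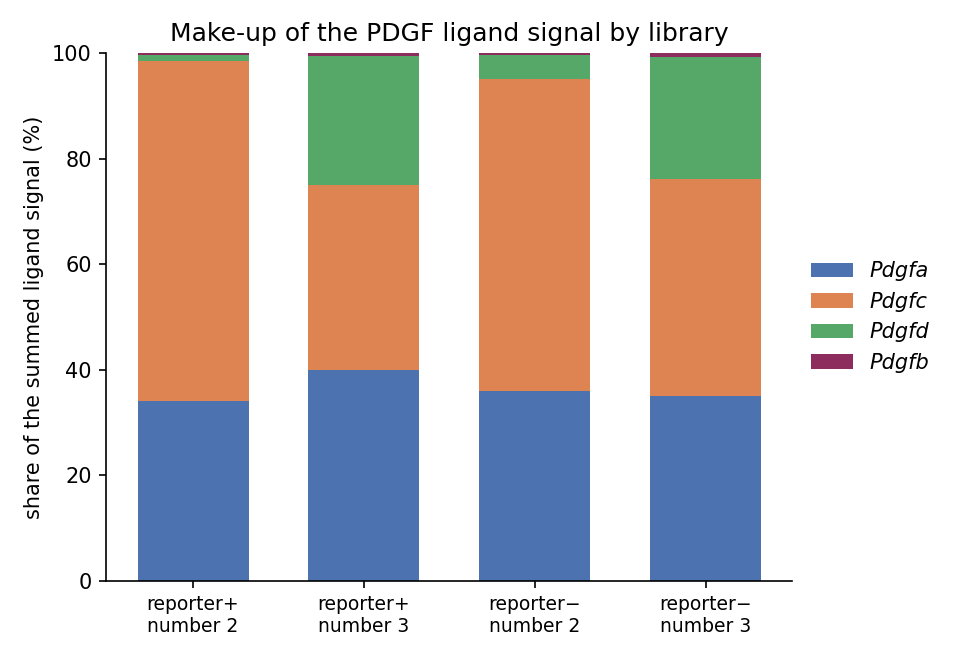
Share of the summed linear signal of the 4 PDGF ligand genes taken by each gene, in percent, in each of the 4 libraries. *Pdgfc* takes 64.4% and 59.2% in the libraries numbered 2 and 35.0% and 41.2% in those numbered 3, while *Pdgfd* takes 1.08% and 4.56% against 24.4% and 23.1%.

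In each of the 7 genes both libraries of one number lay above both libraries of the other, whereas no gene separated the populations. Number 3 was the higher in *Pdgfrb*, *Pdgfd* and *Pdgfb*, as in 36.4% of all genes without overlap between numbers, and the lower in *Pdgfra*, *Pdgfrl*, *Pdgfa* and *Pdgfc*, as in 28.8%. This is a description without a test, and most genes of the table shared it. *Pdgfd* was higher in number 3 than in number 2 by 3.74 on the log2 scale in reporter+ and by 1.56 in reporter− cells, and of all genes 5.35% were higher by at least 1 in both populations. *Pdgfc* changed the other way, by −1.64 in reporter+ and −1.30 in reporter− cells, as did 4.36% of all genes by at least 1 in both. *Pdgfa* differed by −0.54 and −0.81 and *Pdgfrl* by −0.50 and −0.42, whereas *Pdgfra* differed by −0.16 and −0.42, *Pdgfrb* by 0.25 and 0.25 and *Pdgfb* by 0.10 and 0.46. Across genes, the correlation of log2 values was 0.984 and 0.982 between libraries of 1 number and 0.952 and 0.957 between libraries of 1 population. What the number stands for is not given in the sources used here, and a batch of cells cannot be told apart from other steps that share it.

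**Figure D4:**
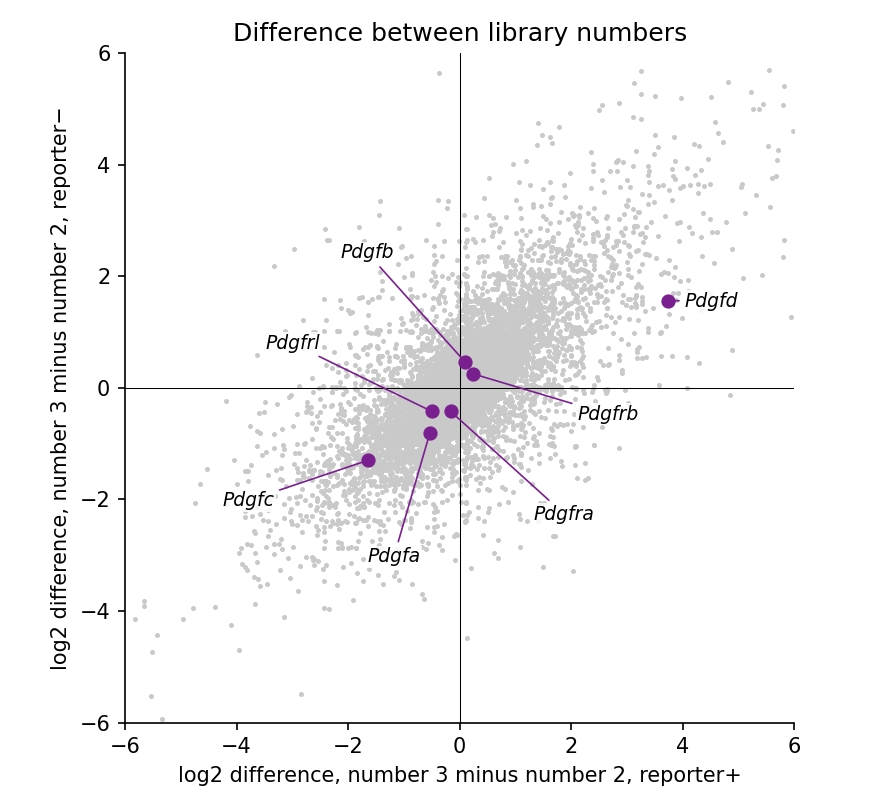
Log2 difference between library number 3 and number 2 in reporter+ cells (horizontal) and in reporter− cells (vertical), with each gray point 1 of 14407 genes and the PDGF genes in purple, and 8 genes beyond the axes. *Pdgfd* lies at 3.74 and 1.56 and *Pdgfc* at −1.64 and −1.30, and the other PDGF genes lie within 1 of 0 on both axes.

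The genes whose 4 values were nearest to those of a member, by Euclidean distance on the log2 scale over the 4 libraries, were found for the 5 members with a mean of at least 0. For *Pdgfra* they were *Aldoa* (0.12), a glycolytic enzyme, *Col1a1* (0.23), the main collagen chain of bone and fibrous tissue, and *Hsp90b1* (0.27), a chaperone of the endoplasmic reticulum. *Pdgfra* had 12 genes within a distance of 0.5, whereas *Pdgfrb*, at a level shared by more genes, had 174. Near to *Pdgfrb* were *Actr1a* (0.10) and *Psma6* (0.12), and nearest to *Pdgfa* were *B3glct*, *Vps13c* and *Ctbs* at 0.06 to 0.16. *Pdgfc* had 11 genes within 0.5, led by *Plekhn1* (0.27), *Sord* (0.29) and *Mmp16* (0.33), the last a membrane-bound metalloproteinase. *Pdgfrl* had 52, led by *Ccdc163* (0.18), *St6galnac2* (0.20) and *Nmi* (0.24). Such nearness over 4 libraries describes level and spread only.

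Genes known to act with the PDGF ligands and receptors were read in 6 lists of 88 genes in all, of which 87 had a value in all 4 libraries and *Flt3* was blank. None passed the test between populations in limma (0 at an adjusted and 0 at an unadjusted p under 0.05). Without overlap, 5 of the 87 (5.7%) were above and 6 (6.9%) below in reporter+ cells, where the shares among all genes were 7.59% and 8.10%. Their median log2 difference was −0.02, beside −0.0035 over all genes. Within both numbers 21 of them (24.1%) were higher and 23 (26.4%) lower in reporter+ cells, beside 22.1% and 24.8% of all genes.

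Among 11 genes that process or bind the ligands, the median difference was 0.02. *Plat*, the tissue plasminogen activator that activates PDGF-C, had log2 values of 5.38 and 4.90 in reporter+ and 5.37 and 4.86 in reporter− libraries, and *Plau*, the urokinase that activates PDGF-D, had 5.49 and 5.26 against 5.89 and 5.14. Both were chosen after their values were seen, for their substrates, and both overlapped between populations. *Sparc*, an extracellular protein that binds PDGF-B, was the one gene of this list without overlap, at 8.61 and 8.68 in reporter+ and 8.61 and 8.51 in reporter− libraries, a log2 difference of 0.09 with a standard error of 0.23, although its number 2 libraries were equal to the second decimal and the populations overlapped once libraries were centered on their medians. The proprotein convertase genes *Pcsk5* and *Pcsk6*, also singled out after their values were seen, differed in opposite directions within each number, with overlap between the populations. *Pcsk5* was higher in reporter+ by 0.79 within number 2 and by 1.36 within number 3, and *Pcsk6* differed by −0.58 and −1.07, while either gene was over 1 higher in number 3 than in number 2 in both populations.

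The 26 genes of adaptors and enzymes that act close to the activated receptors differed by −0.21 to 0.30 on the log2 scale, with a median of 0.01. *Yes1*, a Src family kinase, was without overlap at 1.95 and 1.98 in reporter+ and 1.91 and 1.74 in reporter− libraries (difference 0.14, standard error 0.18). *Jak1*, a kinase upstream of STAT proteins, was without overlap in the other direction at 5.26 and 5.35 against 5.38 and 5.54 (difference −0.15, standard error 0.15). With a library left out, these differences ran from 0.06 to 0.22 for *Yes1* and from −0.23 to −0.07 for *Jak1*. No gene of this list differed by 1 or more between numbers in both populations.

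For the 14 genes of the Ras-ERK and AKT kinase cascades the differences ran from −0.24 to 0.12, with a median of −0.08. *Hras*, which encodes a Ras GTPase, was at 2.12 and 2.38 in reporter+ and 2.42 and 2.56 in reporter− libraries, a difference of −0.24 with a standard error of 0.19, which was −0.11 without reporter+ number 2. *Pdpk1*, which encodes the kinase that phosphorylates AKT, was at 2.31 and 2.26 against 2.45 and 2.33, a difference of −0.11 with a standard error of 0.17. The *Pdpk1* difference ran from −0.16 to −0.05 with a library left out. In both genes the gap between the populations was smaller than the distance between the libraries of either population.

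Of 16 genes that dampen receptor signaling, 3 had populations without overlap, 2 above and 1 below, beside 7.59% and 8.10% of all genes, which is near that background, and the median difference was −0.02. *Ptpn2*, which encodes a tyrosine phosphatase, was at 1.504 and 1.817 in reporter+ and 1.348 and 1.142 in reporter− libraries (difference 0.42, standard error 0.23). The related phosphatase gene *Ptpn1* was at 3.48 and 3.51 against 3.33 and 3.25 (difference 0.21, standard error 0.14). *Dusp6*, which encodes an ERK phosphatase that ERK signaling itself induces, was at 3.37 and 3.18 against 3.80 and 3.47 (difference −0.36, standard error 0.19). Adjusted p was 1 for these 3 genes in limma. With a library left out, the difference ran from 0.26 to 0.57 for *Ptpn2* and from −0.53 to −0.20 for *Dusp6*. *Spry1*, which encodes an inhibitor of receptor tyrosine kinase signaling and was singled out after its values were seen, had values of −2.72 and 0.89 in reporter+ and −1.20 and 0.85 in reporter− libraries, so that reporter+ number 2 was the lowest of the 4.

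Early response genes are those that growth factors, PDGF among them, induce first. Of the 14, the 4 that were lower in number 3 than in number 2 by at least 1 in both populations were *Fos*, *Egr1*, *Ier2* and *Ier3*, named after their values were seen, where 4.36% of all genes were. The other genes of the list were also lower in number 3 in both populations, except *Egr2*, *Egr3* and *Myc*. *Egr2*, at a mean log2 value of −3.29, was higher in number 3 by 0.87 in reporter+ and 1.55 in reporter− cells. *Egr3*, at a mean of −1.40, was higher by 0.89 and 1.12, and *Myc* by 0.13 and 0.27. *Egr1*, a zinc finger transcription factor, was at 3.84 and 1.75 in reporter+ and 4.37 and 2.46 in reporter− libraries. The list's median log2 difference between numbers (number 3 minus number 2, averaged over the populations) was −0.76, beside 0.05 over all genes, and its median between populations was −0.07. *Ccl2*, a chemokine gene, was the gene without overlap above in reporter+, at 5.11 and 4.52 against 4.52 and 4.42 (difference 0.35, standard error 0.24). The *Ccl2* difference was 0.06 without reporter+ number 2 and 0.64 without reporter+ number 3, and its populations overlapped after centering. *Srf*, the serum response factor gene, was the gene without overlap below, at 1.73 and 1.65 against 1.84 and 1.81 (difference −0.14, standard error 0.18).

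In the last list, of 7 genes for the related class III receptors and their ligands, *Csf1*, the ligand gene of the macrophage receptor CSF1R, was without overlap at 6.75 and 6.77 in reporter+ and 6.90 and 7.64 in reporter− libraries (difference −0.50, standard error 0.30). Without reporter− number 3 that difference was −0.13, and without reporter− number 2 it was −0.87. Its receptor gene *Csf1r* was at 1.08 and 1.60 against −0.11 and 1.13 and is also a macrophage marker. Over 10 macrophage markers, 9 had a value in all libraries and all 9 were higher in reporter+ within both numbers, as were 22.1% of all genes, although the sort removed CD45+ cells, and their summed linear signal was 229 to 269 in reporter+ and 88.2 to 172 in reporter− libraries. That sum rests largely on *Lyz2*, at 7.65 and 7.88 in reporter+ and 6.27 and 7.25 in reporter− libraries on the log2 scale. The part of macrophages in the *Csf1* and *Csf1r* values was not tested.

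**Figure D5:**
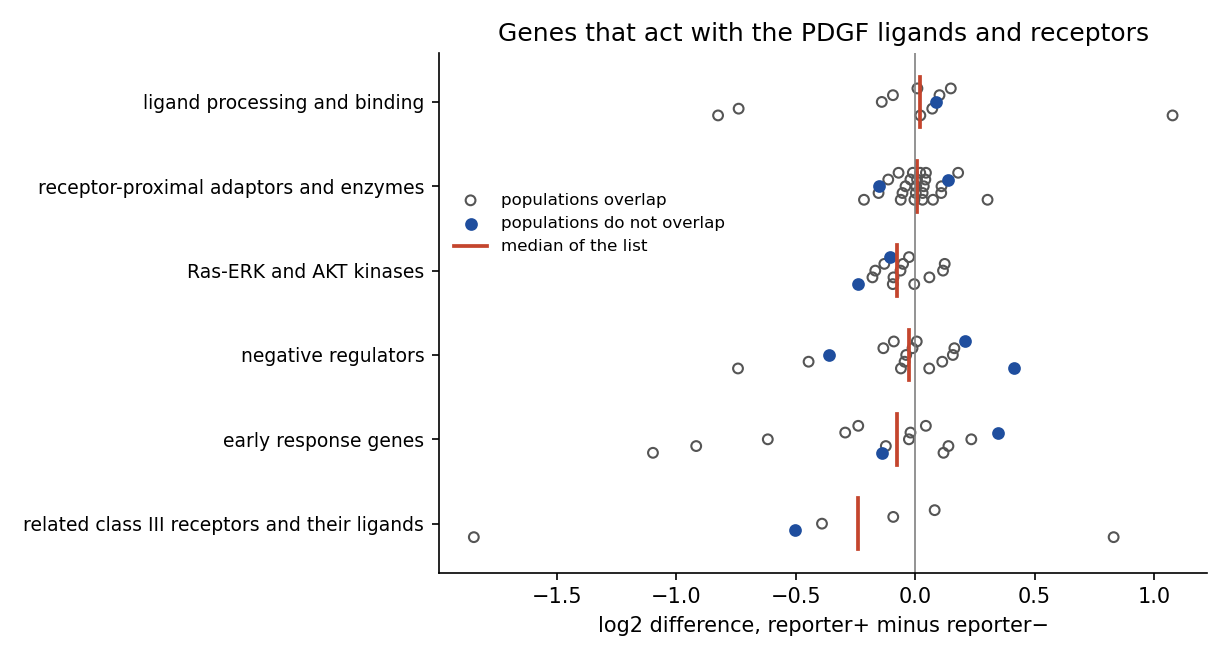
Log2 difference between PDGFRα reporter+ and reporter− cells of the 87 genes with values in 6 lists of genes that act with the PDGF ligands and receptors, each point 1 gene, filled where the populations do not overlap, with a red line at the median of each list. Medians lie between −0.24 and 0.02, and 11 genes are filled.

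The labelled cell type was checked on 10 periosteal fibroblast markers, which all had values, and whose summed linear signal was 3206 to 3462 in reporter+ and 3080 to 3417 in reporter− libraries. Collagen genes *Col1a1*, *Col1a2* and *Col3a1* were above 7 on the log2 scale in every library, and the sums rest largely on such abundant genes. Single members differed more, with *Lum* at 5.96 and 6.04 in reporter+ and 4.61 and 3.73 in reporter− libraries (difference 1.83) and *Dcn* at 7.47 and 8.49 against 6.67 and 6.51 (difference 1.39), both proteoglycan genes without overlap. *Fn1*, the fibronectin gene, was without overlap in the other direction at 10.29 and 9.41 against 10.47 and 10.30 (difference −0.54), and within both numbers 5 of the 10 genes were lower and 3 higher in reporter+ cells, beside 24.8% and 22.1% of all genes. Without overlap 2 of the 10 were above and 1 below, beside 7.59% and 8.10% of all genes. *Postn*, the periostin gene, ranged from −1.13 to 3.04 and differed by −1.14 between the populations, with overlap. The adjusted p was 1 for these 4 genes in the main limma model, which ignores the library number. A limma fit that accounts for that number changed the call for *Lum* only (adjusted p = 0.0121). In that fit it was 0.0651 for *Dcn*, 0.0647 for *Postn* and 0.807 for *Fn1*. Mural markers, of interest beside *Pdgfrb*, summed to 17.9 to 20.6 in reporter+ and 29.0 to 30.4 in reporter− libraries. *Higd1b* was blank, *Rgs5* was at −3.56 to −1.08, and *Acta2*, *Cspg4* and *Notch3* reached 4.32, 3.74 and 1.36. The sums rest largely on *Acta2* and *Cspg4*, which both overlapped between populations. From number 2 to number 3 *Acta2* rose by 2.36 in reporter+ and 1.13 in reporter− cells, whereas *Cspg4* differed by −2.48 and −1.84. Of the 9 mural genes with values 4 were below in reporter+ without overlap, beside 8.10% of all genes. These were *Myh11* (difference −2.39), *Des* (−1.60 within number 2 and −2.40 within number 3), *Mcam* (−0.84) and *Notch3* (−0.36). *Kcnj8* (0.94) and *Abcc9* (0.44) were above without overlap, beside 7.59% of all genes. Mean log2 values were low for *Myh11* (−1.88), *Des* (−2.31), *Mcam* (−0.33) and *Kcnj8* (−0.30). The part of mural cells in the *Pdgfrb* values was not tested. Signals of 8 osteoclast markers summed to 14.4 to 21.6 against 5.53 to 9.99, with *Mmp9* the highest in every library (3.21 and 3.89 against 2.18 and 1.41 on the log2 scale), while *Itgb3* was lower in reporter+ within both numbers (−0.54 and −0.61). Those of 8 skeletal muscle markers summed to 1.04 to 1.20 against 1.19 to 2.55, and those of 8 erythroid markers to 0.0909 to 0.0987 against 0.173 to 0.188. Of the genes that overlap a member in GENCODE M21, among them the antisense genes *Gm42802* at *Pdgfra* and *6330403L08Rik* at *Pdgfa*, none had a value in any library.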

How the data were processed

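Total RNA of PDGFRα reporter+ and PDGFRα reporter− cells was made by the authors into stranded libraries, 2 per population, and read from both ends on an Illumina NextSeq. The submitters' processing notes name GRCm38.p6, bcl2fastq 2.17.1.14 and Partek 7.0, and the aligner, counting and filters are not given in the sources used here. The values were deposited on a log2 scale after quantile normalization by the authors, 1 per gene symbol and library and blank without signal. Quantile normalization gives each library the same distribution (median 1.48, highest 11.73), so that differences are relative to the other genes. The linear unit and the depth are unknown, and no counting error could be given.

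Columns were assigned to a population by name. Differences (reporter+ minus reporter−) over the 14415 genes with 4 values were tested by lmFit and eBayes (limma 3.58.1, R 4.3.3) with a variance trend, two-sided and with no block, under Benjamini-Hochberg adjustment and a threshold of 0.05. An exact permutation test of 2 against 2 cannot go below p = 0.333 and was not used. The model was tested on simulated data in which 200 genes were changed by 2 on the log2 scale. It called 172 of them and 6 unchanged genes. The simulated libraries were drawn independently, so this cannot show how the model behaves where libraries of 1 number are correlated. Levels across genes were put on the linear scale as 2 to the power of the value for sums and shares. Positions came from GENCODE M21 and upstream sequences from a set of RefSeq windows. The copy of that set used here held no entry for *Pdgfrb*, *Pdgfb* and *Pdgfrl*, and the *Pdgfa* windows hold exons.

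The PDGF genes, the 6 pathway lists and the 8 marker lists were chosen with earlier results of these data known. Genes named from a pathway list are up to 4 with the largest absolute difference among those with a mean of at least 0 and no overlap between populations, and any with an adjusted p under 0.05, and 3 nearest genes are named per member, except 1 gene that is not reported here. Marker lists are given by sums and defining markers. Alternatives were a block on the library number, other variance models, pseudocounts of 1 and 0.1, centering, filters on low values and leaving out each library. Python 3.11.15, numpy 2.4.6, pandas 2.3.3 and matplotlib 3.10.9 were used for summaries and plots.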

Additional observations from a re-analysis of the deposited data

How the results depend on the processing

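No PDGF receptor or ligand gene reached an adjusted p under 0.05 in limma under any of the 13 alternative settings (0.781 to 1 over 87 values), and none changed direction with either pseudocount or with centering. The block, the variance models and the filters leave a difference as it is and so cannot turn it. With a library left out, 10 of 28 values changed direction. The lowest and highest differences were −0.16 and 0.26 for *Pdgfra*, −0.20 and 0.053 for *Pdgfrb*, −0.38 and 0.43 for *Pdgfa*, −0.30 and 0.16 for *Pdgfb*, −0.91 and 0.73 for *Pdgfc*, −2.91 and 0.83 for *Pdgfd*, and 0.14 and 0.64 for *Pdgfrl*. A population then has 1 library, which is assumed to vary like the others. None of the 11 pathway genes named by the rule passed the threshold under an alternative, and their direction with a library left out is fixed by their choice as genes without overlap. Sizes moved with a library left out, for *Ccl2* between 0.06 and 0.64 and for *Csf1* between −0.87 and −0.13, and to as little as −0.11 for *Hras*, −0.20 for *Dusp6*, 0.26 for *Ptpn2*, 0.06 for *Yes1*, −0.07 for *Jak1*, −0.05 for *Pdpk1* and 0.04 for *Sparc*. The median of the pathway lists ran from −0.066 to 0.019 with a library left out. Centering reduced the pathway genes without overlap from 11 to 9, as *Ccl2* and *Sparc* then overlapped. The other settings with all libraries do not alter the order of a gene's values. Overlap was not recomputed with a library left out, since a lone library changes its meaning. A pseudocount of 1 brought *Pdgfd* to −0.23 and *Pdgfrl* to 0.23. Under the filter on a mean of at least 0, *Pdgfb* and *Pdgfd* have no value.

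The library number as a replicate block in limma raised the number of genes with an adjusted p under 0.05 from 0 to 29 (0.201% of 14415), and to 12 with the filter on a mean of at least 0 added. No member and no gene of the pathway lists was among the calls, and of the marker lists *Lum* (adjusted p = 0.0121), *Pf4* (0.0345) and *C1qb* (0.0437) were. The block narrowed the standard error of *Pdgfc* to 0.15 (95% interval −0.44 to 0.26) and that of *Pdgfra* to 0.15 (−0.29 to 0.38), but left that of *Pdgfb* at 0.61 (−1.44 to 1.30). The blocked intervals were −0.33 to 0.19 for *Pdgfrb*, −0.35 to 0.39 for *Pdgfa*, −2.06 to −0.015 for *Pdgfd* and −0.10 to 0.88 for *Pdgfrl*. The *Pdgfd* interval lies below 0 although its differences were −2.13 within number 2 and 0.05 within number 3. With so few libraries its width comes largely from variance shared over other genes, so it does not measure the spread of these differences. The smallest adjusted p with the block was 0.781 (*Pdgfd*, unadjusted 0.0474) among members and 0.0837 (*Pcsk5*) in the lists. The numbers are shared by only 2 libraries each and no label says that they mark a preparation, although deviations from the population means correlated across genes at r = 0.681 between libraries of 1 number, so that the block was not made the main model.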
